A study of Mus musculus with 36 samples.

Results

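The genes described here are 37 mouse genes of glycolysis and of the response to low oxygen, followed through the differentiation of embryonic stem cells toward motor neurons. They were chosen by gene symbol, and each was found through its Ensembl gene ID, giving 37 of the 51912 genes in the tables. The members and the direction of their early fall and late rise were known from earlier results of these data. The shares of members set beside those of all genes below are therefore a description and no independent test. By role they comprise 4 transporters of glucose and lactate, 9 enzymes of upper glycolysis, 8 enzymes of lower glycolysis, 3 regulatory kinases, 9 other genes of the hypoxia response, and 4 genes for the subunits of the hypoxia-inducible factor (HIF) and the prolyl hydroxylases that control it. The whole group carried 14019 ± 303 TPM (a relative transcript abundance corrected for length; mean ± SD, n = 3) at day 0, 5654 ± 167 at day 4 and 11624 ± 888 at day 7.

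Polyadenylated RNA was sequenced from 36 libraries of the mouse line HM1, 3 at each of 12 time points: every 12 hours from day 0 to day 4, then at days 5, 6 and 7. Feeder cells had been removed, and all cultures grew in N2B27 medium, with 10 ng/ml bFGF from day -3, joined at day -1 by 5 µM CHIR99021 (a GSK3 inhibitor that activates Wnt signaling), 10 µM SB431542 and 2 µM DMH1 (inhibitors of Activin/Nodal and BMP receptors). The day 0 libraries are labelled as the control and as differentiating from neuromesodermal progenitors. From day 0 on the medium held 100 nM retinoic acid (RA) and 500 nM of the Smoothened agonist SAG in place of these, and was changed daily. Every library after day 0 had RA and SAG, so the agents, the change of medium and the time in culture cannot be told apart. The 3 libraries of a time point are labelled as biological replicates of 1 cell line, with no word on separate cultures, so the tests below weigh differences against the scatter of those libraries, part of which may be technical.

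Glycolysis splits glucose into pyruvate, which is either reduced to lactate and exported or passed to the mitochondria. The transcription factor HIF, a dimer whose alpha subunit is marked for destruction by prolyl hydroxylases when oxygen is present, raises the transcription of glucose transporters, most glycolytic enzymes, lactate export, mitophagy and angiogenesis genes, and of a prolyl hydroxylase that in turn limits it. Pluripotent cells are known for high glycolytic expression, and differentiating neurons for greater use of oxidative phosphorylation.

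HIF binds a short element in promoters and enhancers whose core is ACGTG, so the start regions of the members were searched for that motif on either strand (CACGT on the other), from 250 bases before to 50 bases after each annotated start (RefSeq, build GRCm38.p6). Of the 33 members with a window in the table, 23 (69.7%) held the motif in at least 1 window, against 28.19% of the 12412 tested genes with a window and 21.78% of all 27025 genes. When GCGTG was added, 30 of 33 members (90.91%) held a match, against 46.73% of all genes. The members' windows and those of all tested genes had nearly the same base composition, with a median of 20 and 19 CpG dinucleotides and a GC content of 62% and 60.33%. The windows of all genes were poorer in both, with a median of 7 CpG dinucleotides and a GC content of 52.67%. Members had more than 1 window in some cases, and 26 of their 47 windows (55.32%) held ACGTG, against 19.62% of all 32851 windows. For this contrast and the one with GCGTG, shares of the tested genes were not counted. Both therefore set members against windows of unlike composition. Slc2a3, Bnip3l, Epas1 and Ndrg1 had no window and were not searched. The 250 bases before the start are shown for the 4 members with a match that had the largest difference between days 2 and 0, with the matches in capitals; a CACGTG, being its own reverse complement, counts as 2 overlapping matches, and chromosome positions are for GRCm38.p6. They are Slc16a3 at chr11:120948817-120949066 (plus strand), Bnip3 at chr7:138909507-138909756 (minus strand), Ldha at chr7:46845554-46845803 (plus strand) and Hk2 at chr6:82774455-82774704 (minus strand).
Slc16a3: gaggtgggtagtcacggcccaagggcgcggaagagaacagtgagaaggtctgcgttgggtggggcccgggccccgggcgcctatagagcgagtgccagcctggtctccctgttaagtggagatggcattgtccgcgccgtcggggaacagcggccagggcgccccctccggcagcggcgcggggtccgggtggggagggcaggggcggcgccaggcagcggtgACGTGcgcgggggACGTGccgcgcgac
Bnip3: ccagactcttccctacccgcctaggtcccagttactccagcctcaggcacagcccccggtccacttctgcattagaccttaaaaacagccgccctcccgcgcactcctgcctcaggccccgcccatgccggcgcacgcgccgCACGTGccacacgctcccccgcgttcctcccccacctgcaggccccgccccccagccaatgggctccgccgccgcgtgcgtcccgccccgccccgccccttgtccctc
Ldha: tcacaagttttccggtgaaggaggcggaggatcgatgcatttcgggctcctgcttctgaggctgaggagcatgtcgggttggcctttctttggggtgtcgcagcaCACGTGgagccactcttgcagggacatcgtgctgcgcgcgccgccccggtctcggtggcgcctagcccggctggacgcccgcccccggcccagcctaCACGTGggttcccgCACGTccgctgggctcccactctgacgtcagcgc
Hk2: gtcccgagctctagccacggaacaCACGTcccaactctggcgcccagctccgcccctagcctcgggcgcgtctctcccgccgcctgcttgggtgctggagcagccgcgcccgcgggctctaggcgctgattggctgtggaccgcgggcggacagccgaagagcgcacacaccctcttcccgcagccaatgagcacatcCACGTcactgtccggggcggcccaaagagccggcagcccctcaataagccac
The 2 matches of Slc16a3 began 27 and 14 bases before the start. The window of Bnip3 held a pair, 108 and 107 bases before the start, and that of Hk2 held matches 226 and 52 bases before it. The Ldha window held 5 matches, in overlapping pairs from 145 and 48 bases before the start and a single one at 34. All 4 members shown were lower at day 4 than at day 0 and higher at day 7 than at day 4, as given below. They were picked by the size of their early change, so this shared course is partly set by the choice. Of the members without a match in any window, Gpi1, Pfkl, Pfkp, Tpi1, Eno1, Eno2, Ldhb, Pdk1 and Adm were lower at day 2 than at day 0. Pfkfb4 was higher. A link between the motif and the course was not tested. A match describes the letters only, and binding was not measured.

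The libraries held 26567321 to 35757989 estimated counts on genes. Levels between genes are given in TPM, which is per length. Fold changes come from edgeR's quasi-likelihood test on the counts, with a gene called at a Benjamini-Hochberg adjusted p under 0.05 over the 17990 genes tested. Of the 37 members, 36 passed the filter on low counts; Car9, a carbonic anhydrase induced strongly by hypoxia in many tumours, did not, with 0 to 11 estimated counts and at most 0.83 TPM in any library. The 2 scales differ against day 0: on the log2(TPM + 0.1) scale the median tested gene was higher by 0.11 at day 2, 0.30 at day 4 and 0.38 at day 7, and in the scaled counts by 0.01, 0.02 and 0.05. Against day 0, TPM ratios therefore lie above the fitted ones from day 4 on, while from day 4 to day 7 that median moved by only 0.05 in TPM.

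The cells changed type over the same days. Neural progenitor markers summed to 317 to 332 TPM at day 0 and 2291 to 2392 at day 2. All 8 of 8 were called higher at day 2 than at day 0, against 36.7% of all tested genes. At day 0, labelled as neural progenitors, Pax6 stood at 1.10 ± 0.10 and Olig2 at 0.11 ± 0.06 TPM, beside Pou5f1 at 275 ± 10.5. Pluripotent markers summed to 295 to 316 TPM at day 0 and 8.01 to 12.3 at day 4. Endoderm and surface epithelium markers summed to 680.2 to 709 TPM at day 0 and 31.6 to 41.5 at day 2. There 6 of 7 tested were called lower, against 36.2% of all tested genes. Markers of neurons summed to 170 to 176 TPM at day 0, 2963 to 3165 at day 4 and 2998 to 3177 at day 7. Between days 4 and 7 the lists that rose were floor plate (6 of 6 tested markers, 1082 to 1214 TPM at day 4 and 2297 to 2486 at day 7) and astroglia (6 of 8, 1645 to 1949 and 3515 to 3666 TPM), although the defining astrocyte genes Gfap and Aqp4 stood at 0.12 ± 0.11 and 1.05 ± 0.15 TPM at day 7. Over the same days 6 of 8 neural progenitor markers and 6 of 8 endothelial markers were lower. In that comparison 33.5% of all tested genes were called higher and 32.9% lower. Endothelial markers summed to 70.8 to 88.4 TPM at day 4 and 49.9 to 56.2 at day 7. Blood markers summed to at most 0.39 TPM at day 7, with Hba-x, Hbb-bh1, Gata1 and Cx3cr1 at 0. At day 4 only Gata1 and Cx3cr1 of these were at 0, and at day 2 the blood marker sum was higher, as given below. The part of these changes in cell makeup in the results on the group was not tested, and in bulk RNA fewer cells of a type and less RNA per cell cannot be told apart.

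Across the first 2 days most of the group fell. Of the 36 tested members, 26 were called lower at day 2 than at day 0 and 7 higher, against 36.2% of all tested genes lower and 36.7% higher (72.9% called in all). The median log2 fold change of the members was -0.78, and that of all tested genes 0.01. All 4 transporters and all 8 lower glycolysis enzymes were lower, as were 7 of 9 upper glycolysis enzymes. The members called higher were Hk1, Pfkm, Pfkfb3, Pfkfb4, Vegfa, Epas1 and Egln1.

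The summed level of the group was lowest at day 4, so that day was also compared, a choice made after seeing the data. At day 4, 22 of 36 members were lower than at day 0 and 10 higher, against 39.8% and 41% of all tested genes (80.7% called), with a member median of -1.03. From day 4 to day 7, 31 members were higher and 2 lower, against 33.5% and 32.9% of all tested genes (66.3% called), with a member median of 1.59. The comparison of day 7 with day 2 gave 30 higher and 4 lower, against 40.3% and 37.9% (78.2% called), with a member median of 1.43. The lowest mean TPM lay at day 3, 3.5 or 4 for 15 of 36 members (41.67%), against 10.19% of all tested genes. For another 16 (44.44%, against 36.75%) it lay at one of days 0.5 to 2, and the highest mean lay at day 7 for 24 (66.67%), against 26%.

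At day 7, 22 of 36 members were higher than at day 0 and 9 lower, against 44.1% and 41.2% of all tested genes (85.3% called), with a member median of 0.66. All 8 tested members of the other hypoxia response were higher, and so were 7 of 9 upper glycolysis enzymes, but only 2 of 8 lower glycolysis enzymes, and none of the 4 transporters. Combining days 0, 4 and 7, 19 members were lower at day 4 and then higher at day 7. Of these, 8 ended above their day 0 level (Gpi1, Pfkl, Pfkp, Aldoc, Tpi1, Bnip3, Adm, P4ha2), 6 ended below it (Slc2a1, Slc2a3, Aldoa, Eno1, Pkm, Pdk1) and 5 were not called against it (Slc16a3, Hk2, Pgk1, Pgam1, Ldha). A further 8 were higher in both comparisons (Hk1, Pfkm, Pfkfb3, Vegfa, Bnip3l, Ndrg1, Egln1, Egln3), and only Slc16a1 was lower in both. These comparisons share the day 0, 4 or 7 libraries, and day 4 was chosen as the lowest day of the group, which favours a fall followed by a rise. The shares of all tested genes with these patterns were not counted, so the pattern counts are descriptive only.

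**Figure D1:**
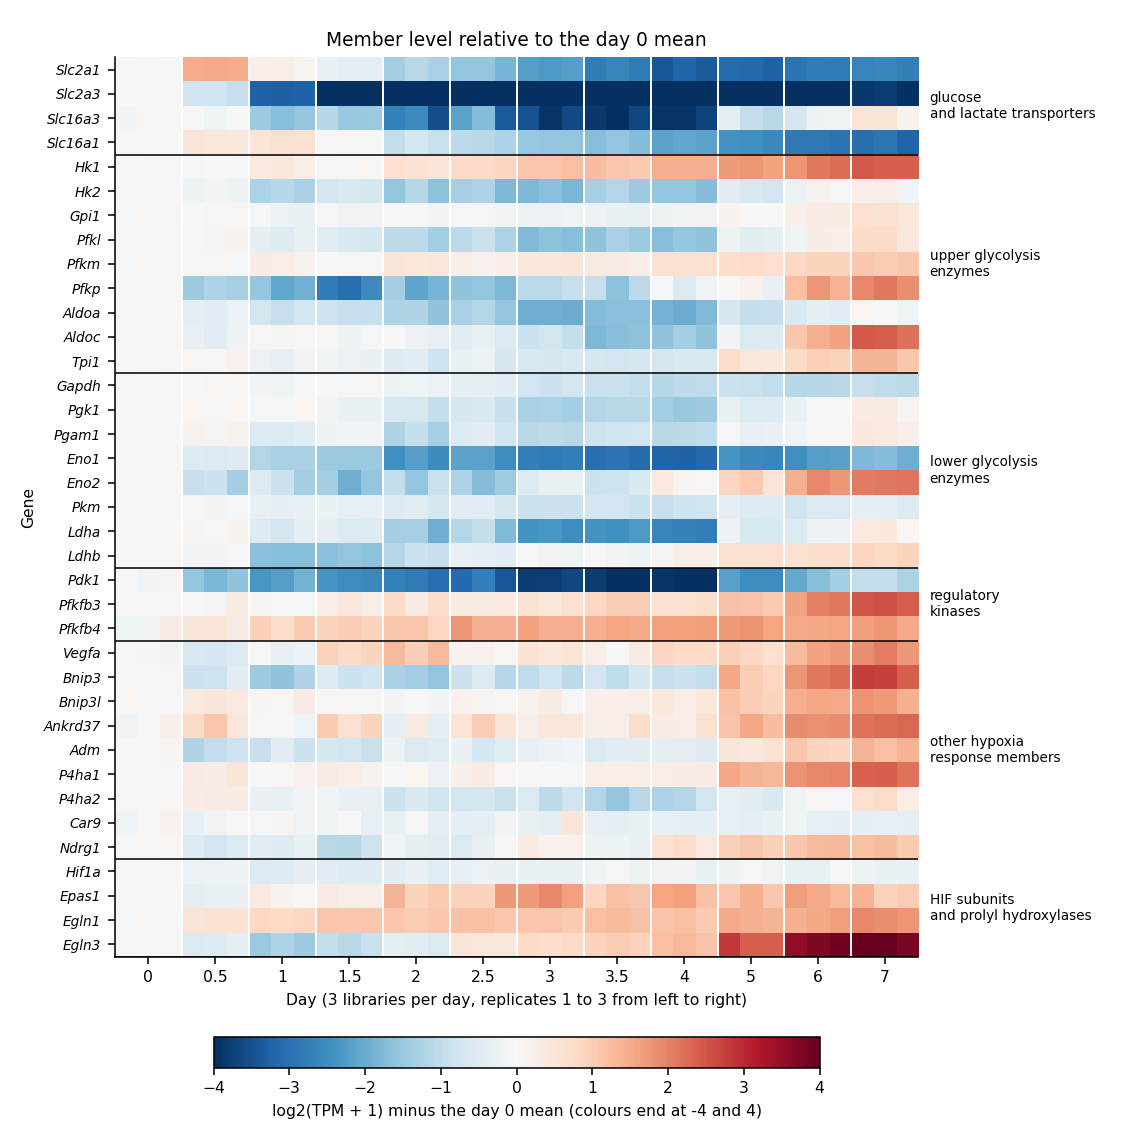
Heatmap of log2(TPM + 1) minus the day 0 mean for the 37 members (rows, grouped by role) in the 36 libraries (columns, by day, replicates 1 to 3 from left to right); red is higher and blue lower than day 0, and the colours end at -4 and 4. The transporters and lower glycolysis enzymes turn blue up to day 4, and red spreads over the other hypoxia response members from day 5, with Egln3 darkest at day 7.

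The turn fell between days 4 and 5. In that step of 24 hours, 31 members were called higher and 1 lower, against 21.2% and 16.8% of all tested genes (38% called). The exceptions were Slc16a1, which fell by 0.35 ± 0.07 (SE) on the log2 scale, and Pfkp, Pfkfb4, Hif1a and Epas1, which were not called. All 8 lower glycolysis enzymes and all 8 tested members of the other hypoxia response were higher. The step to day 6 had 21 members higher and 5 lower (24.1% and 26.4% of all tested genes, 50.5% called), and the step to day 7 had 28 higher and none lower, against 11.3% and 8.96% of all tested genes (20.3% called). Before day 4 the largest counts of lower members were in the steps to whole days: 23 to day 1, 21 to day 2 and 18 to day 3, against 24.3%, 27.2% and 16.3% of all tested genes. Those steps had 8, 9 and 8 higher members, against 23.3%, 26.1% and 18.1% (47.6%, 53.3% and 34.4% called). The steps to days 0.5, 1.5, 2.5, 3.5 and 4 had 14, 10, 8, 10 and 13 lower members, against 26.7%, 19.4%, 22.9%, 19.8% and 20.8%, and 8, 12, 10, 7 and 7 higher ones, against 27.6%, 27%, 24.9%, 21.1% and 19.5% (54.3%, 46.4%, 47.8%, 40.8% and 40.2% called).

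**Figure D2:**
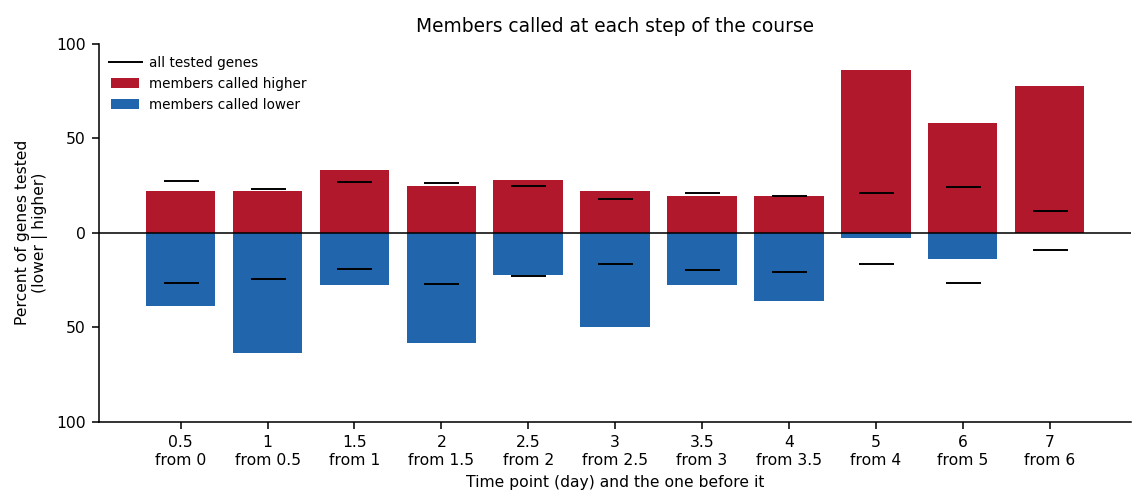
Percent of the 36 tested members called higher (red, above 0) or lower (blue, below 0) at each time point against the one before it, with black marks for the percent of all 17990 tested genes. The red bar for day 5 against day 4 stands for 31 of 36 members and the blue bar for 1; steps up to day 4 last 12 hours and later ones 24.

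The transporters had the lowest medians of the roles at days 2 and 4, with log2 fold changes from day 0 of -2.25 and -4.25. Slc2a1, which encodes the widespread glucose transporter GLUT1 (chromosome 4, 119108711 to 119137983, GRCm38), stood at 743, 752 and 787 TPM at day 0 and at 2145, 2175 and 2107 TPM at day 0.5. After that it was lower at each time point up to day 4, where it stood at 70.0, 82.3 and 73.1 TPM. The 12-hour rise was 1.53 ± 0.06 on the log2 scale, and the fall from day 0 to day 4 was -3.66 ± 0.07 (adjusted p = 1.70e-30), with no library of the 3 time points overlapping. At day 7 the Slc2a1 libraries were at 119, 123 and 113 TPM, above all those of day 4 and far below those of day 0 (log2 fold change -3.03 ± 0.07).

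Slc2a3, which encodes the high-affinity transporter GLUT3 of early embryos and neurons, took a different path in the first 12 hours. It stood at 587, 599 and 585 TPM at day 0, 337, 340.0 and 312 at day 0.5, and 14.6, 14.3 and 13.8 at day 2, so its fall began while Slc2a1 rose. Its log2 fold change from day 0 to day 2, -5.54 ± 0.10 (adjusted p = 5.22e-31), was the largest among the members. At day 7 it had risen to 39.6, 41.4 and 33.1 TPM, a log2 fold change of 1.52 ± 0.09 from day 4, and all 3 libraries were still below every day 0 library (-4.46 ± 0.09).

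The exporters of lactate and other monocarboxylates moved apart. Slc16a3, which encodes the lactate exporter MCT4 of glycolytic cells, had 85.1, 97.7 and 92.7 TPM at day 0, 5.15, 5.16 and 6.18 at day 4, 70.8, 47.1 and 41.7 at day 5, and 135, 135 and 102 at day 7. Its rise from day 4 to day 5, 3.82 ± 0.28 on the log2 scale, was made in 24 hours with no overlap between the libraries. From day 0 to day 7 the fitted difference, 0.11 ± 0.19, was not called, though all 3 day 7 libraries lay above those of day 0 in TPM. Slc16a1, which encodes the more widespread transporter MCT1, had 100.2, 95.8 and 95.7 TPM at day 0, 149 ± 7.01 (SD) at day 1, 21.4, 22.3 and 21.1 at day 4 and 11.2, 12.2 and 9.78 at day 7. It was the one member lower both at day 4 than at day 0 and at day 7 than at day 4 (-1.02 ± 0.07), with a log2 fold change of -3.50 ± 0.07 from day 0 to day 7. Its last step, from day 6 to day 7, was not called (-0.14 ± 0.07).

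**Figure D3:**
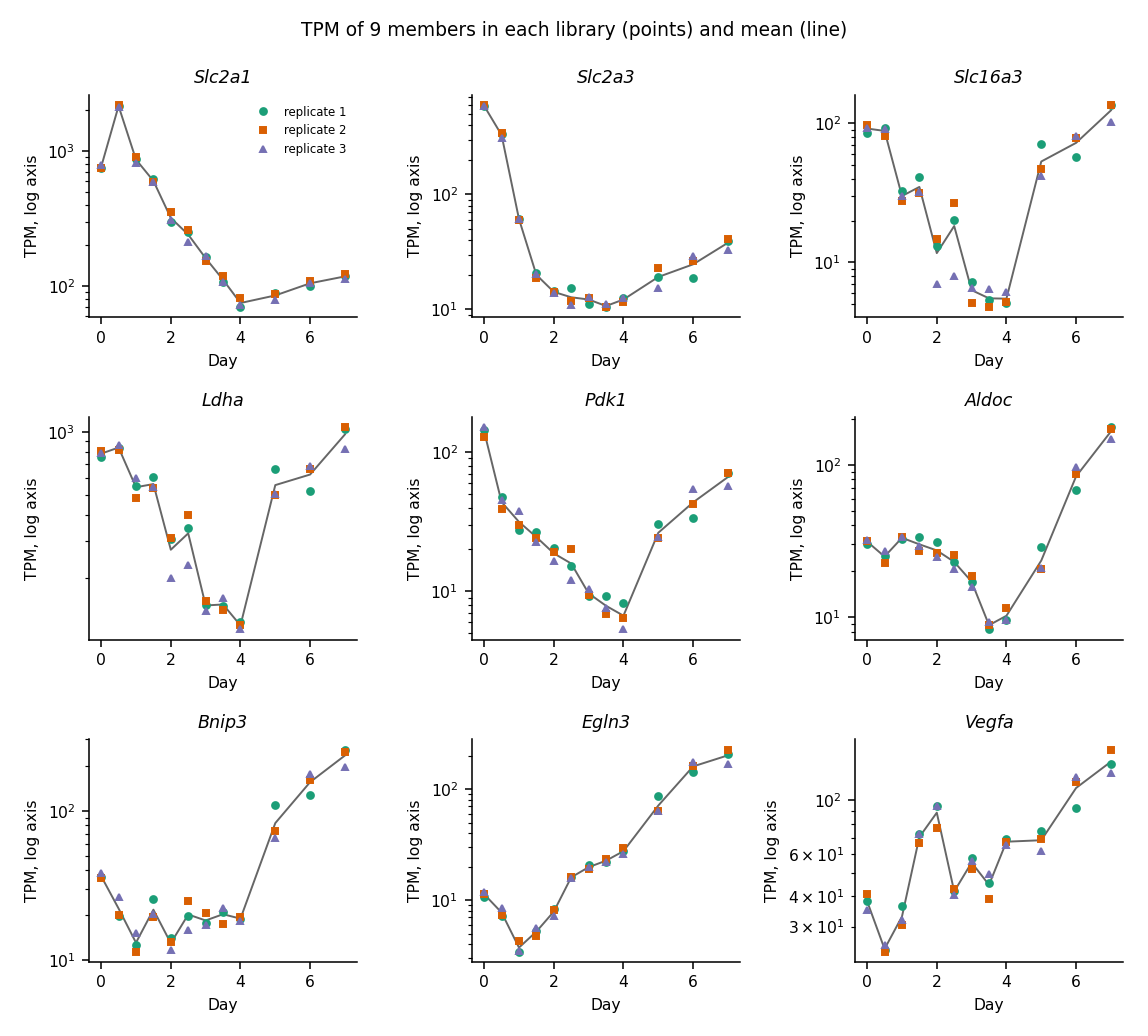
TPM (log axis) against day for 9 members; points are the 3 libraries of each time point, marked by replicate number, and lines join the means. Slc2a1 peaks at day 0.5, Slc2a3 does not regain its day 0 level, and Slc16a3, Ldha, Pdk1, Aldoc and Bnip3 all step up between days 4 and 5.

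In upper glycolysis, which uses ATP to turn glucose into triose phosphates, all 9 enzymes were higher at day 7 than at day 4 and also than at day 2. The 2 hexokinases, which trap glucose in the cell, ran in opposite directions at first. Hk1, the housekeeping form common in brain, stood at 15.5, 15.8 and 15.2 TPM at day 0, 43.2, 43.5 and 44.3 at day 4 and 88.4, 85.8 and 85.5 at day 7, each set above the one before (2.12 ± 0.06 from day 0 to day 7). Hk2, the inducible form, stood at 88.5, 84.4 and 86.1, then 28.8, 28.5 and 25.5, then 98.5, 102 and 77.5 TPM at the same days. Its day 7 libraries overlapped those of day 0, and the fitted difference of -0.11 ± 0.10 was not called.

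Of the 3 phosphofructokinases, which commit sugar to glycolysis, the liver form Pfkl fell and rose while the muscle form Pfkm rose slowly. Pfkl went from 124, 129.9 and 123 TPM at day 0 to 37.5, 42.1 and 40.6 at day 4, and to 213, 215 and 172 at day 7, above all day 0 libraries. Its fitted rise from day 0 to day 7 was 0.22 ± 0.09 (adjusted p = 0.0306) and was no longer called without day 0 replicate 1 (0.16) or 3 (0.20), or without day 7 replicate 1 (0.19) or 2 (0.18). Pfkm had 40.5, 43.3 and 42.1, then 65.1, 67.0 and 65.5, then 90.1, 86.8 and 90.6 TPM at the same days. The platelet form Pfkp, abundant in brain, had its low point early. It stood at 24.3, 24.2 and 25.6 TPM at day 0, 2.69, 2.18 and 3.40 at day 1.5, 23.3, 16.4 and 22.4 at day 4 and 97.4, 110.3 and 92.3 at day 7. Its log2 fold change was -1.84 ± 0.16 from day 0 to day 2, and 3.68 ± 0.16 from day 2 to day 7. The difference between days 0 and 4, -0.44 ± 0.15, was not called without day 4 replicate 2 (-0.31) or on the TPM scale.

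Aldolase, which splits fructose bisphosphate, has 2 members here. Aldoa, the ubiquitous form, stood at 1060.0, 1122 and 1133 TPM at day 0, 295, 276 and 327 at day 4 and 1154, 1119 and 981 at day 7. Its day 7 and day 0 libraries overlapped in TPM, while the fitted difference of -0.40 ± 0.09 was called; on the log2(TPM + 1) scale it was -0.03 and not called. Aldoc, the form of neural tissue, stood at 30.3, 31.4 and 32.2 TPM at day 0, 9.55, 11.6 and 9.57 at day 4, and 176, 171 and 148 at day 7, more than any earlier library. Its rise from day 4, 4.05 ± 0.12 on the log2 scale, was among the largest of the group, and its fall from day 0 to day 2, -0.41 ± 0.11, was not called on the TPM scale. Gpi1, the isomerase of glucose phosphate, varied least in this set, between 330.3 ± 10.8 at day 3.5 and 596 ± 46.3 TPM at day 7. Its fall at day 2, -0.17 ± 0.04, came with overlapping libraries and was not called on the TPM scale. Tpi1, which interconverts the triose phosphates, was at 372 ± 8.98 TPM at day 0, 236 ± 11.2 at day 4 and 899 ± 90.1 at day 7.

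Lower glycolysis, which makes ATP, pyruvate and lactate, held the most abundant members. Gapdh, often taken as a reference gene, stood at 4315, 4555 and 4382 TPM at day 0, 2010.2, 2154 and 2169 at day 4 and 2315, 2208 and 2137 at day 7. All day 4 and day 7 libraries were below all those of day 0, with log2 fold changes of -1.37 ± 0.04 and -1.36 ± 0.04, and those of days 4 and 7 overlapped (0.01 ± 0.04, not called). Gapdh was thus the one enzyme of lower glycolysis not called higher from day 4 to day 7. Its 40 near-identical copies took 1.52% to 1.61% of the summed TPM at days 0, 2, 4 and 7.

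Pgk1, the first ATP-making kinase of the pathway, and Pgam1, the mutase after it, ended near their start in the fitted counts. Pgk1 was at 571 ± 7.08 TPM at day 0, 208 ± 8.18 at day 4 and 689 ± 68.7 at day 7, and Pgam1 at 589 ± 12.1, 281 ± 11.1 and 748 ± 59.4. Neither was called between days 0 and 7 (-0.09 ± 0.08 and -0.02 ± 0.07). On the log2(TPM + 1) scale the sign of both turned, to 0.26 and 0.34, and both were called higher. In TPM all day 7 libraries of both lay above those of day 0. The copies of Pgk1 took 9.22% of the sum of Pgk1 and its copies at day 0 and 17.6% at day 7, so part of its signal may be shared with Gm5537 and Pgk1-rs7. Pkm, the pyruvate kinase gene, was at 1533 ± 40.8 TPM at day 0, 855 ± 38.5 at day 4 and 1126 ± 70.6 at day 7. Pkm fell by 0.71 ± 0.06 on the log2 scale to day 2, and its fitted difference from day 2 to day 7, -0.19 ± 0.06, was 0.14 on the TPM scale.

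Eno1, the ubiquitous enolase, fell most among the enzymes and ended furthest below its start. It stood at 1641, 1703 and 1742 TPM at day 0, 308, 369 and 298 at day 2, 183, 180.4 and 190.2 at day 4 and 489.7, 505 and 438 at day 7. All libraries of a day lay apart from those of the others, with log2 fold changes of -2.50 ± 0.08 at day 2 and -2.14 ± 0.08 at day 7 against day 0. Its near-identical copy Eno1b was given 61.2% to 63.2% of the TPM of the pair at all 12 time points, so the level of Eno1 is uncertain by that share, while its course is the same with and without the copy. Eno2, the neuronal enolase, had 9.85, 10.4 and 11.1 TPM at day 0, 4.80, 2.90 and 5.18 at day 2, 14.1, 11.5 and 11.1 at day 4 and 46.9, 47.95 and 49.7 at day 7. Its log2 fold change was -1.51 ± 0.14 from day 0 to day 2, and 3.38 ± 0.14 from day 2 to day 7.

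The subunits of lactate dehydrogenase also parted. Ldha, whose product favours making lactate, stood at 756, 814 and 791 TPM at day 0, 308, 313 and 200.4 at day 2, 123, 120.3 and 114 at day 4, 668, 499.8 and 503 at day 5 and 1036, 1050.4 and 830.0 at day 7. Its rise from day 4 to day 5 was 2.26 ± 0.15 on the log2 scale with no overlap. All day 7 libraries lay above those of day 0 in TPM, and the fitted difference of -0.06 ± 0.14 was not called. Ldhb, whose product favours using lactate, stood at 145, 144 and 155 TPM at day 0, 45.1 ± 0.30 (SD) at day 1, 159.6, 175 and 176 at day 4 and 270.1, 256 and 274 at day 7. It had its low point at day 1, before most of the group, and was then higher at day 7 than at day 0 by 0.58 ± 0.04.

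Among the regulatory kinases, Pdk1 fell to day 4 and rose after it. Its product switches off pyruvate dehydrogenase and so keeps pyruvate out of the mitochondria. It stood at 143, 129 and 151 TPM at day 0, 47.6, 38.8 and 45.1 at day 0.5, 8.28, 6.48 and 5.34 at day 4, 30.5, 24.1 and 24.4 at day 5 and 70.6, 70.5 and 57.5 at day 7. The fall to day 4 was -4.22 ± 0.15 (adjusted p = 4.60e-23), the rise after it 3.63 ± 0.15, and day 7 stayed below day 0 (-0.59 ± 0.12) with no overlap. Pfkfb3 and Pfkfb4, which make the activator of phosphofructokinase, were higher than at day 0 at days 2, 4 and 7, with single steps down between (Pfkfb3 to days 2.5 and 4, Pfkfb4 to day 6 by -0.26 ± 0.07). Pfkfb3 went from 8.80, 8.80 and 9.06 TPM at day 0 to 14.2, 14.3 and 14.9 at day 4 and 56.1, 56.7 and 51.4 at day 7, higher by 2.15 ± 0.10 than at the start. Pfkfb4 went from 3.09, 3.32 and 4.67 to 13.4, 13.5 and 13.7 and then 13.8, 14.8 and 12.3 TPM, higher at day 4 by 1.84 ± 0.08 and not called from there to day 7 (-0.11 ± 0.07).

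The other members of the hypoxia response showed the late rise without exception among the 8 tested, and only 4 of them were lower at day 2. Bnip3, a mitophagy receptor, stood at 36.2, 35.4 and 38.2 TPM at day 0, 14.2, 13.3 and 11.7 at day 2, 18.9, 19.6 and 18.4 at day 4, 109, 73.4 and 66.2 at day 5 and 257, 249 and 198 at day 7. It rose by 3.87 ± 0.15 on the log2 scale from day 2 to day 7 (adjusted p = 1.14e-21), 2.21 ± 0.14 above day 0. Its relative Bnip3l, also a mitophagy receptor, stood at 131 ± 5.94 TPM at day 0, 126 ± 5.79 at day 2 and 411 ± 51.2 at day 7. Its first difference, -0.11 ± 0.07, was not called, though it was without day 2 replicate 2 (-0.16). Ankrd37, a small ankyrin-repeat gene induced by HIF, had 2.56, 2.72 and 3.51 TPM at day 0, 1.95, 3.98 and 2.02 at day 2, overlapping, and 16.8, 17.4 and 18.3 at day 7 (2.31 ± 0.18 above day 0). Its exons overlap those of Lrp2bp and Ufsp2 on the other strand, and the counting is not stated to use strand, so its level is uncertain.

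The secreted factors differed from each other in the middle of the course. Vegfa, the main angiogenic growth factor, stood at 38.2 ± 2.91 TPM at day 0, 24.2 ± 0.73 at day 0.5, 88.8 ± 10.3 at day 2, 41.9 ± 1.19 at day 2.5 and 144 ± 16.3 at day 7. It thus had an early peak at days 1.5 and 2: the step to day 1.5 was 1.16 ± 0.08 and the step from day 2 to day 2.5 was -1.09 ± 0.08. Adm, the vasodilator adrenomedullin, was low throughout, at 1.48 ± 0.185 TPM at day 0, 0.24 ± 0.15 at day 0.5 and 5.18 ± 0.46 at day 7. The collagen prolyl hydroxylases were also apart: P4ha1 stood at 24.5 ± 0.72 and 23.8 ± 2.67 TPM at days 0 and 2 (-0.14 ± 0.08, not called, though called at -0.20 without day 2 replicate 2) and reached 125 ± 10.3 at day 7, while P4ha2 fell from 18.3 ± 0.80 to 8.40 ± 1.80 at day 4 and reached 27.4 ± 4.63. The end of P4ha2 above its start (0.21 ± 0.10, adjusted p = 0.0441) was not called without any 1 of the day 0 libraries (0.19 to 0.21) or without day 7 replicate 1 (0.17) or 2 (0.12). Ndrg1, a stress-induced gene, was at 3.69 ± 0.25 TPM at day 0, 1.32 ± 0.28 at day 1.5 and 9.58 ± 0.76 at day 7.

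The HIF alpha subunits differed in level and course. Hif1a, the main subunit, stood at 83.2, 82.7 and 78.6 TPM at day 0, 59.1, 56.9 and 56.6 at day 1.5, 74.2, 74.5 and 67.6 at day 4 and 70.6, 68.1 and 67.5 at day 7, a range of means of 1.42-fold over the 12 time points, the smallest among the members. It was lower at day 7 than at day 0 (-0.60 ± 0.05), and its difference between days 4 and 7, -0.10 ± 0.05, was not called, although it was without day 4 replicate 3 (-0.14). Epas1, which encodes HIF-2 alpha, had 0.90, 0.94 and 1.02 TPM at day 0, 5.60 ± 0.68 at day 3, its highest, and 4.00, 2.67 and 2.96 at day 7, higher than at day 0 by 1.40 ± 0.24. Its fall from day 4 to day 7 (-0.51 ± 0.20, adjusted p = 0.0276) came with overlapping libraries and was not called on the TPM scale or without day 4 replicate 1 (-0.47) or 2 (-0.39) or day 7 replicate 2 (-0.39) or 3 (-0.47). HIF alpha is controlled mainly at the level of the protein, which these libraries do not measure.

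The 2 prolyl hydroxylases that mark HIF alpha both ended high. Egln1, the main oxygen sensor, climbed from 22.6, 25.5 and 24.2 TPM at day 0 to 51.7, 49.2 and 52.3 at day 2 and 93.4, 89.9 and 84.0 at day 7 (1.53 ± 0.05 from day 0). Egln3, itself a well-known HIF target, stood at 10.8, 11.5 and 11.7 TPM at day 0, 3.74 ± 0.47 at day 1, 27.6, 29.3 and 26.0 at day 4, 86.7, 63.3 and 63.5 at day 5 and 209, 227 and 169 at day 7. Its rise from day 2 to day 7, 4.43 ± 0.11 on the log2 scale (adjusted p = 1.25e-27), was the largest of the group, and its rise from day 0 to day 7 was 3.80 ± 0.10. It was 1 of the 10 members already above their day 0 level by day 4 (0.98 ± 0.11), with no overlap between the libraries.

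Since related enzymes moved apart, the makeup of each set changed. With 3 libraries a side an exact permutation test cannot go below 0.1, so shares are described only. Ldha made up 84.1% ± 0.73 (SD, n = 3) of the TPM of Ldha and Ldhb at day 0, 41.2% ± 2.16 at day 4 and 78.3% ± 2.74 at day 7. Hk1 made up 15.2% ± 0.44 of the hexokinase pair at day 0, 61.3% ± 1.91 at day 4 and 48.5% ± 3.48 at day 7. Slc16a1 made up 51.5% ± 2.36 of the monocarboxylate transporter pair at day 0, 79.7% ± 2.10 at day 4 and 8.23% ± 0.57 at day 7, so that day 4 and day 7 cells had opposite leading transporters. Slc2a1 made up 56.3% ± 0.94 of its pair at day 0, 96.8% ± 0.13 at day 1.5 and 75.7% ± 1.39 at day 7. Among the phosphofructokinases, Pfkl led at day 0 (65.3% ± 0.725), Pfkm at day 4 (52.0% ± 1.24) and Pfkl again at day 7 (51.3% ± 2.48), when Pfkp had reached 25.7% ± 1.28 from 12.9% ± 0.58.

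**Figure D4:**
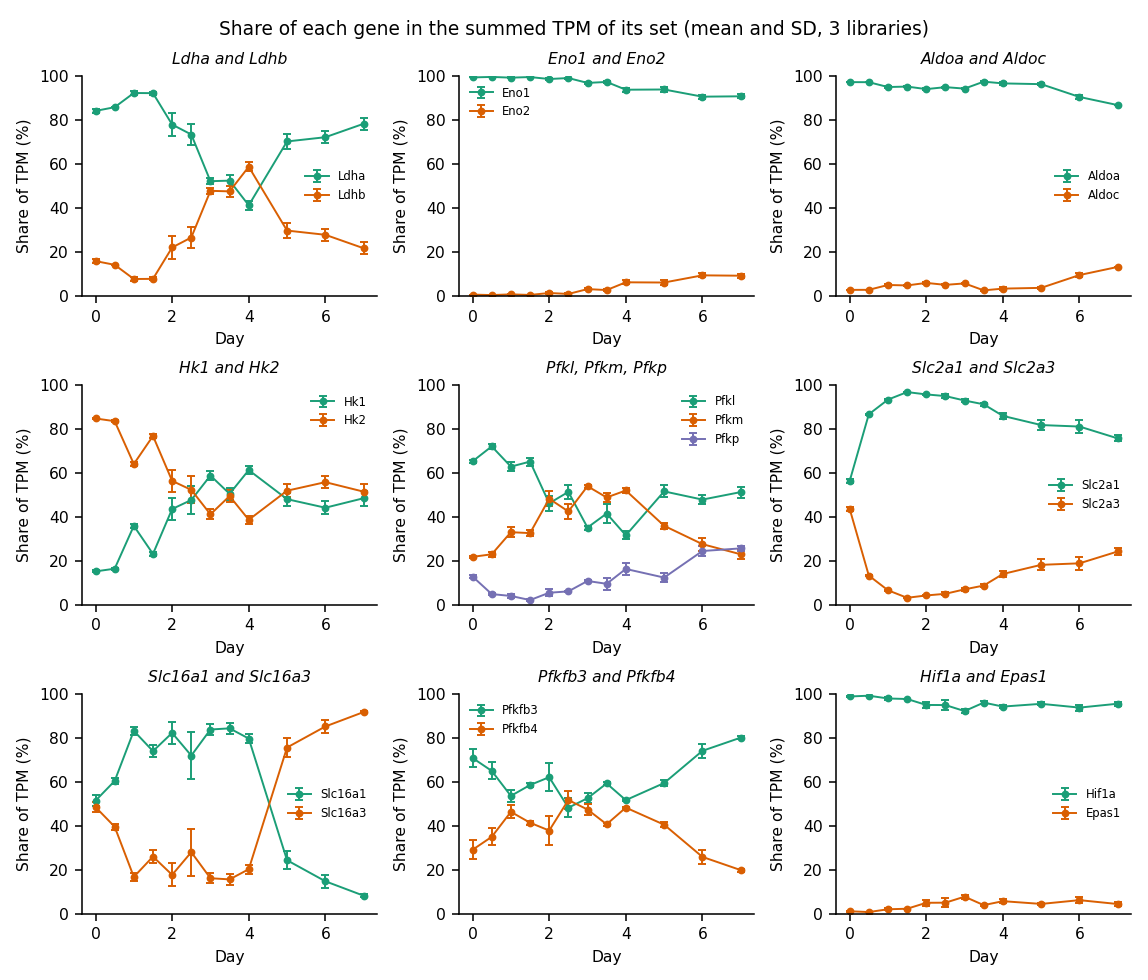
Share (%) of each gene in the summed TPM of its set against day, for 9 pairs or trios; points and bars are the mean and SD of 3 libraries. The lines of Ldha and Ldhb, Hk1 and Hk2, and Slc16a1 and Slc16a3 cross, while Eno1, Aldoa and Hif1a lead their pairs at every time point.

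The neural forms gained share without overtaking, Eno2 largely by day 4 and Aldoc mainly after it. Eno2 made up 0.613% ± 0.018 of the enolase pair at day 0, 6.21% ± 0.83 at day 4 and 9.20% ± 0.87 at day 7, and Aldoc 2.76% ± 0.029, 3.33% ± 0.607 and 13.2% ± 0.065 of the aldolase pair. The enolase shares depend on the near-identical copy: with Eno1b added to Eno1, Eno1 made up 99.77%, 97.486% and 96.38% at those days, which leaves Eno2 less than the share above. Pfkfb3 led its pair at day 0 (70.9% ± 4.29) and day 7 (80.1% ± 0.72) and was near parity at day 4 (51.7% ± 0.49). Epas1 did not pass 7.80% ± 0.92 of the pair with Hif1a, reached at day 3.

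Levels at the 12-hour points between whole days (days 0.5, 1.5, 2.5 and 3.5) stood apart from those around them. Against the mean of the whole days 12 hours before and after, 24 members were higher and 9 lower, against 29.2% and 25.8% of all tested genes (55% called), with a member median of 0.15. The contrast also takes up curvature of the course, and the hour of the medium change is not given. The largest difference was that of Slc16a3, 0.79 ± 0.13, followed by Eno2 at -0.79 ± 0.08 and Ankrd37 at 0.74 ± 0.09. Ankrd37 alternated, with 2.93 ± 0.51, 5.87 ± 1.53, 2.84 ± 0.36, 6.09 ± 1.01, 2.65 ± 1.15 and 5.35 ± 1.23 TPM at days 0, 0.5, 1, 1.5, 2 and 2.5.

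**Figure D5:**
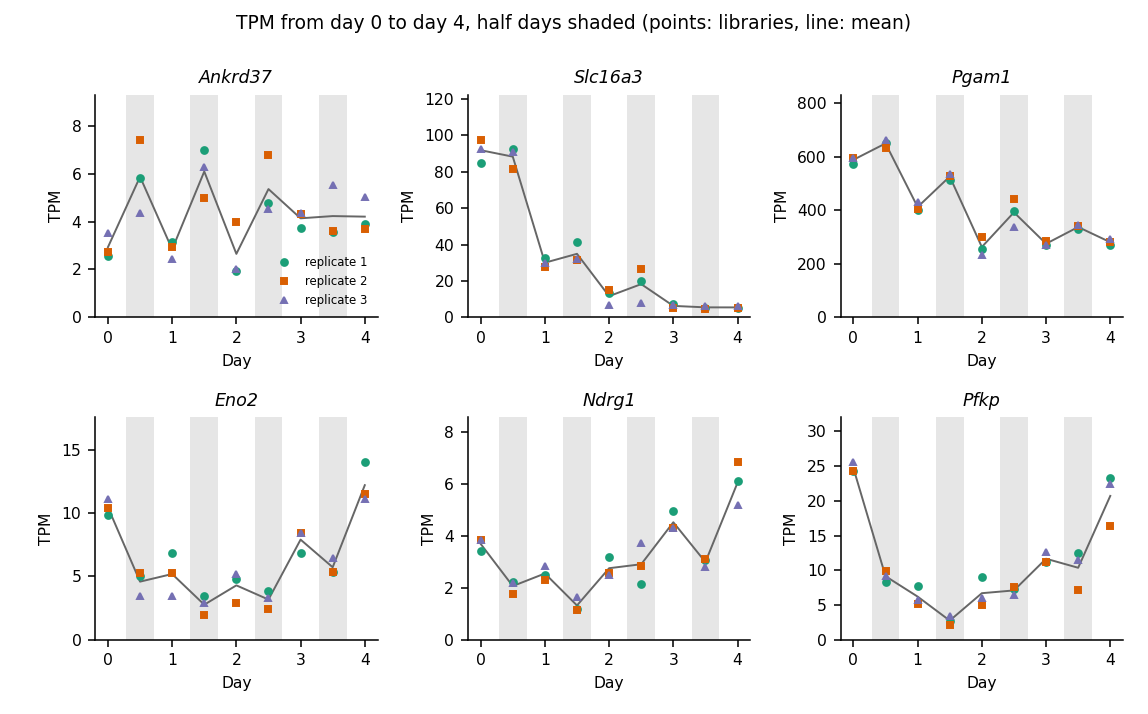
TPM against day from day 0 to day 4 for 6 members, with days 0.5, 1.5, 2.5 and 3.5 shaded; points are libraries, marked by replicate number, and lines join the means. Ankrd37 and Pgam1 stand higher at days 0.5, 1.5 and 2.5 than at the whole days around them, and Eno2 and Ndrg1 stand lower at days 0.5, 1.5 and 3.5 than at their neighbours.

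In 4 members the means went up into all 4 of these points and down out of all 4: Pgam1, Ldha, Ankrd37 and P4ha1. Of those 8 steps, 7 were called for Pgam1 and P4ha1 and 6 for Ankrd37. For Ldha none of the 4 rises was called and all 4 falls were, while Hk2, whose mean rose into only 2 of the 4 points, had both rises and all 4 falls called. The share of all tested genes that alternate in this way was not counted, so these counts are descriptive only. Pgam1 stood at 589, 650.0, 413, 526, 263, 393, 275, 338 and 281 TPM from day 0 to day 4. The opposite sign was seen in 9 members: Hk1, Pfkm, Pfkp, Aldoc, Eno2, Vegfa, Adm, Ndrg1 and Epas1. Leaving out replicate 1, 2 or 3 at every time point gave 22 higher and 8 to 9 lower.

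The members also moved together among the replicates of some days. At days 3 and 3.5 no replicate stood out: replicates 1, 2 and 3 were lowest for 9, 13 and 14 members, then for 12, 11 and 13. At day 7, replicate 3 was the lowest of the 3 libraries for 30 of 36 members, against 37.18% of all tested genes. At day 6, replicate 1 was the lowest for 32 (46.88% of all tested genes), and at day 5 it was the highest for 24 (32.23%). At day 2.5 replicate 3 was the lowest for 27 (33.84%), and at day 2 for 23 (35.76%). Slc16a3 shows the size of this: at day 2.5 it had 20.1, 26.7 and 8.03 TPM. Without day 7 replicate 3 the members called higher from day 4 to day 7 were again 31, which the low level of that library favours. Leaving out any other library of day 4 or day 7 also gave 31.

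Related genes outside the group were counted from lists chosen with the same earlier results known. Of 30 other reported hypoxia targets, 13 were higher and 15 lower at day 2 than at day 0 (median -0.28), and 24 were higher and 4 lower at day 7 than at day 2 (median 1.16). Of all tested genes, 36.7% were higher and 36.2% lower in the first comparison, and 40.3% and 37.9% in the second. Among genes with a mean of at least 5 TPM, Ddit4, a stress-induced inhibitor of mTOR, had the largest fall at day 2, from 554 to 56.9 TPM (-3.39 ± 0.08), and Cited2, a HIF target that competes for its coactivator, fell by 2.45 ± 0.07. At that level the largest rises were those of Vldlr (1.47 ± 0.08), a lipoprotein receptor, and Igfbp3 (1.21 ± 0.15), a binder of growth factors; Lox rose more (2.21 ± 0.33) from a lower level. From day 2 to day 7, Lox, which crosslinks collagen, rose from 0.95 to 14.6 TPM (3.68 ± 0.20) and Ppp1r3c, a glycogen-targeting subunit, from 3.31 to 42.3 TPM (3.43 ± 0.12), while Hmox1, the heme oxygenase, and Stc2, a secreted glycoprotein, fell (-1.43 ± 0.07 and -1.06 ± 0.13).

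Genes outside the group listed as glycolysis enzymes or their relatives, among them Tigar and Pgam5, went both ways. Ldhc, also in the list, was at 0 TPM in every library of day 2. Of 15 tested, 4 were higher and 9 lower at day 2 than at day 0 (median -0.44), and 5 were higher and 7 lower at day 7 than at day 2 (median -0.42), against the same shares of all tested genes (36.7% and 36.2%, then 40.3% and 37.9%). Bpgm, which makes the red cell metabolite bisphosphoglycerate, and Pfkfb2, a relative of Pfkfb3, had the largest late rises among those with a mean of at least 5 TPM (1.52 ± 0.04 and 1.01 ± 0.09), while Hkdc1 rose more (2.83 ± 0.32) at a lower level. Pfkfb1 fell in both periods (-0.82 ± 0.08 and -1.67 ± 0.09), as Adpgk, an ADP-dependent glucokinase, did in the first (-0.71 ± 0.04). Hk3, a hexokinase of blood cells, was at 0.03 TPM at day 0, 5.59 at day 2 and 0.04 at day 7, and the blood marker sum had its highest value of these days at day 2, 25.8 to 49.2 TPM. The part of such cells in the Hk3 values was not tested.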

How the data were processed

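Polyadenylated RNA of HM1 cultures was sequenced in 36 libraries, 3 per time point at 12 time points. The tables deposited by the authors hold, per Ensembl gene, expected counts (estimated by RSEM) and TPM, made from bcl2fastq 2.20.0 reads on the mouse build GRCm38, per the submitters' processing notes; for the aligner, annotation release and strand setting, the sources used here give nothing. Of the expected counts, 6.87% were not whole, and all were rounded. Library totals ran from 26567321 to 35757989, TPM sums from 999999.21 to 1000000.98, and mitochondrial genes took 0.949% to 1.92% of the counts. Replicates of all 36 pairs differed by more than sampling noise (chi-square per degree of freedom 3.13 to 54.1).

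Genes passing edgeR's filterByExpr by time point (17990) were scaled by TMM (factors 0.924 to 1.06) and fitted with edgeR's quasi-likelihood test over all 12 time points, with 24 residual degrees of freedom. A gene was called at a Benjamini-Hochberg adjusted p under 0.05. The SE of a log2 fold change is its size over the square root of the F statistic, and is approximate. Comparisons were day 2 against 0, day 7 against 2 and 0, the 11 steps between time points, and days 0.5, 1.5, 2.5 and 3.5 against the whole days around them. Day 4 against 0, day 7 against 4 and the addition of Eno1b were chosen after seeing the data. The group and all lists were chosen with earlier results of these data known.

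All 37 members are described by role. Library values are given for those among the 5 largest changes of day 2 against 0, day 7 against 2 or day 7 against 0, or the 3 largest of the 12-hour contrast, and for isozyme sets and HIF subunits. Of other lists, counts and up to 2 rises and 2 falls among called genes with a mean of at least 5 TPM are given. Near-identical copies are genes whose transcripts matched a member at 95% identity or more over at least 300 bases (minimap2 2.31-r1302, GENCODE M21). Without a known strand setting, exons of a gene on the other strand make Slc2a1, Hk1, Gpi1, Pfkm, Pfkp, Aldoa, Tpi1, Gapdh, Bnip3, Ankrd37, Car9, Ndrg1 and Hif1a uncertain, as exons on the same strand do for Pfkm and Hif1a.

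Alternatives were median-of-ratios scaling, no filter, a replicate block, DESeq2, limma on log2(TPM + 1) and log2(TPM + 0.1), only the 6 libraries compared, day 4 in place of day 2, and leaving out replicates. The fit was tested on simulated data. Tools were R 4.3.3, edgeR 4.0.16, limma 3.58.1, DESeq2 1.42.0, Python 3.11.15, pandas 2.3.3 and matplotlib 3.10.9.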

Additional observations from a re-analysis of the deposited data

How the results depend on the processing

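Across the comparisons of whole days and of the 12-hour points, 2585 of 2664 recomputed values kept their side of the threshold and, except for 22 that changed sign uncalled in both fits, their direction, 52 lost a call, 19 gained one and 8 changed sign with a call in at least 1 of the fits. Those 8 were all in limma on TPM: Hif1a (day 7 against 2; 0.15 with 1 added and 0.16 with 0.1), Pkm (day 7 against 2; 0.14 and 0.14), Pgam1 (day 7 against 0; 0.34 and 0.34) and Pgk1 (day 7 against 0; 0.26 and 0.265). Of 3564 values for single steps, 3277 were kept (81 of them with an uncalled change of sign), 213 lost a call, 74 gained one and 0 changed sign in that way. The 2 members lower from day 4 to day 7 became 1 under both limma settings. With day 4 in place of day 2, the 4 members lower at day 7 became 2. With Eno1b added to Eno1, the Eno1 share of the Eno1 and Eno2 pair was 99.77% at day 0, 97.486% at day 4 and 96.38% at day 7.

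Leaving out 1 library gave 7 members higher and 26 to 28 lower at day 2 against 0, 30 and 4 to 5 at day 7 against 2, 20 to 22 and 9 at day 7 against 0, 10 and 21 to 22 at day 4 against 0, and 31 and 1 to 3 at day 7 against 4. For the 12-hour contrast, leaving out a replicate number gave 22 and 8 to 9, and over all steps 115 to 133 higher and 105 to 117 lower calls. With a replicate block the counts were 7 and 26, 30 and 4, 21 and 9, 10 and 22, 31 and 2, and 24 and 9 in the same order, and P4ha2 at day 7 against 0 was the call lost (0.21). Over all tested genes, libraries of one number did not deviate together (mean correlation -0.0018, 1 of 198 pairs over 0.1), so no pairing by number was seen. The labels do not state whether libraries of one number share a culture. The lowest members, Car9, Adm and Epas1, are limited by depth.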

Other observations

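Genes of pyruvate entry into the mitochondria and of the shuttles that carry reducing equivalents there went both ways. Of 18 tested, 7 were higher and 10 lower at day 7 than at day 0 (median log2 fold change -0.25), by edgeR's test at an adjusted p under 0.05, against 44.1% and 41.2% of all tested genes. Mpc1, a subunit of the mitochondrial pyruvate carrier, rose from 4.42 to 67.7 TPM (3.44 ± 0.10, SE), and Pdp1, the phosphatase that reactivates pyruvate dehydrogenase, from 4.64 to 52.9 TPM (3.11 ± 0.09). Gpd2, of the glycerol phosphate shuttle, fell from 51.9 to 18.6 TPM (-1.79 ± 0.04), and Got1, of the malate-aspartate shuttle, from 83.1 to 45.5 TPM (-1.26 ± 0.05).

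Of 11 regulators of HIF, 5 were higher and 5 lower at day 7 than at day 0, near the shares of all tested genes (44.1% and 41.2%). Vhl, which targets hydroxylated HIF alpha for destruction, rose from 17.0 to 83.3 TPM (1.82 ± 0.05), and Arnt2, the partner of HIF alpha common in neurons, from 19.9 to 94.8 TPM (1.85 ± 0.05). Arnt, the widespread partner, fell from 40.2 to 30.0 TPM (-0.79 ± 0.04), and Hif3a from 12.3 to 4.39 TPM (-1.98 ± 0.10).

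Of 8 other genes of sugar and monocarboxylate transport, 5 were higher and 2 lower at day 7 than at day 0, against 44.1% and 41.2% of all tested genes. Slc2a10, a facilitative sugar transporter, rose from 0.31 to 7.11 TPM (4.14 ± 0.18), and Slc16a7, a monocarboxylate transporter, from 2.12 to 5.81 TPM (1.66 ± 0.15). Emb, a chaperone of monocarboxylate transporters, fell from 83.6 to 5.85 TPM (-4.20 ± 0.06). Of 7 pentose phosphate genes, none was higher and 6 were lower, against the same shares, led by Tkt (-1.05 ± 0.04) and Rpe (-0.99 ± 0.06).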
